A study of Sus scrofa with 23 samples.

Results

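Articular cartilage owes its tensile and compressive properties to a small set of matrix proteins, and 6 of their genes, COL2A1, COL11A1, ACAN, HAPLN1, COMP and CILP, were followed here together with SOX9, the transcription factor of chondrocytes that acts on several of them. Members were all probe sets whose gene symbol in the platform annotation was exactly one of these names, with AGC1, the older name of ACAN, also accepted. All 7 genes, of 6765 named by a single symbol, were found, with 13 probe sets among 23999 on the Affymetrix Porcine Genome Array, 2 for each gene except SOX9, which had 1. Of the 13, 12 passed the filter on low signal and were tested among 16799 probe sets; the exception was the second COL11A1 probe set, whose mean log2 signal of 4.80 lay below the filter at 5.30.

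The arrays carried total RNA from joint surfaces of pigs of a Duroc by Pietrain cross, each labelled as affected or non-affected by osteochondrosis, a disturbance of the ossification of growing cartilage. Cartilage of the femoral condyle gave 4 arrays from affected and 5 from non-affected pigs, and cartilage of the medial humeral condyle gave 8 arrays from affected and 6 from non-affected pigs. The study describes affected and non-affected siblings, but the labels used here tie no array to a litter or an animal, so each p-value reflects the scatter among these samples alone, part of which may be technical. A pair of arrays in affected humerus and a pair in non-affected femur were nearly identical and were each averaged, which left 4 affected and 4 non-affected femur samples and 7 affected and 6 non-affected humerus samples. Values are log2 array signals with a floor at 4, which no member probe set reached, so a difference of 1 is a doubling of the signal.

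Collagen II, encoded by COL2A1, forms the fibrils of hyaline cartilage, and collagen XI, to which COL11A1 contributes a chain, lies inside those fibrils and limits their thickness. Aggrecan (ACAN) is the large proteoglycan whose charged sugar chains hold water, and link protein (HAPLN1) fastens it to hyaluronan. COMP is a pentameric protein that binds and bridges collagen fibrils, CILP is a glycoprotein of the middle layer of articular cartilage, and SOX9 acts on enhancers of COL2A1, COL11A1, ACAN and other matrix genes. No sequence of these genes is shown, and array signals of different probe sets are not set against each other, because each probe set binds with its own strength.

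Some properties of the libraries bear on every result. Of 8 chondrocyte markers listed for a check of the tissue, only COL2A1, ACAN and SOX9 had an annotated probe set. At their brightest probe sets all 3 gave signals far above the floor in all 21 samples. The second probe sets of COL2A1 and ACAN read lower, at 5.33 to 6.51 and 5.19 to 5.96. All 3 genes are also members of the set described here, so this check is not independent of it. The bioB hybridisation controls, bacterial transcripts added in fixed amounts, read 9.94 to 10.22 in the 8 femur samples and 8.28 to 8.75 in the 13 humerus samples without overlap, so joint and array handling cannot be told apart. The actin control signal at the 3' end minus that at the 5' end averaged 2.78 in femur and 3.21 in humerus, with overlapping ranges. On average 4.96% of probe sets in femur and 2.58% in humerus lay within 0.1 of the floor, without overlap between joints. The mean log2 signal of 6 tested of 9 listed bone genes was 6.49 to 9.19 in affected and 6.45 to 8.47 in non-affected femur, against 7.97 to 11.04 in affected and 7.20 to 10.79 in non-affected humerus. These 6 genes did not all go the same way. After each array was centred on its median, 1 of the 6 was called higher and 4 lower in femur over both disease states. Of all tested probe sets, 29.2% were then called higher and 22.4% lower. IBSP, a protein of bone matrix, was at the floor in its lowest affected and its lowest non-affected femur sample. The mean of 8 tested of 12 listed genes of macrophages and other myeloid cells was 4.67 to 6.19 in affected and 6.11 to 7.88 in non-affected femur, and 7.02 to 9.56 in affected and 5.47 to 8.85 in non-affected humerus. Non-affected humerus 5 and affected humerus 7 had the lowest bone means of the humerus, 7.20 and 7.97, and non-affected humerus 5 also had the lowest myeloid mean there, 5.47. In bulk tissue, fewer chondrocytes and less RNA per chondrocyte cannot be told apart.

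None of the 12 tested probe sets passed the test between affected and non-affected cartilage in either joint, while 7 of them passed it between femur and humerus over both disease states, beside 51.8% of all tested probe sets. SOX9 was 2.22-fold higher in femur than in humerus and CILP 1.96-fold higher, whereas HAPLN1 was 1.91-fold lower and ACAN 1.29-fold lower in femur, all at the brighter probe set. Of these calls, that of ACAN was lost after each array was centred on its median, after quantile normalization and with the mean of bone genes as a covariate. That of HAPLN1 was lost with the bone covariate, although its log2 difference was then -0.88 beside -0.93 without it. The bone and myeloid means were themselves lower in femur (7.37 and 6.23) than in humerus (9.71 and 8.09), which makes joint differences less precise in fits with them. Whether bone or myeloid content accounts for these differences was not tested. The CILP call was lost with the bone or the myeloid mean as a covariate and without any 1 of 5 samples. Within each joint, the signals of COL2A1, COMP and CILP at their brighter probe sets were positively correlated across samples (r between 0.81 and 0.92). Each of these genes also had a negative r with the bone and the myeloid mean in both joints, none of which passed the test. By the permutation test of r, COMP with CILP in the femur did not pass (adjusted p = 0.0521), and no relation passed by Spearman rho.

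**Figure D1:**
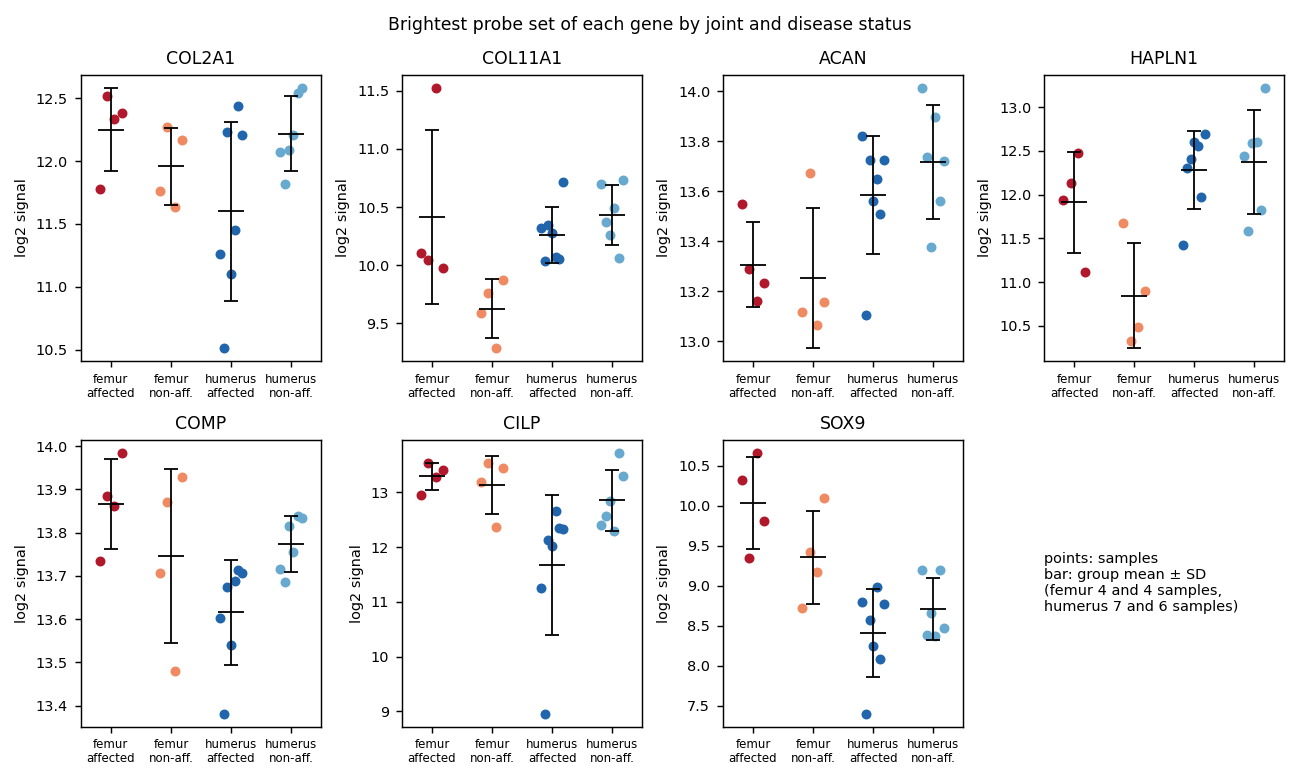
Log2 array signal of the probe set with the higher mean signal for each of the 7 genes; each point is a sample, grouped as affected femur, non-affected femur, affected humerus and non-affected humerus, and bars give the group mean and SD. SOX9 sits between 9.34 and 10.66 in affected femur and between 7.40 and 8.99 in affected humerus, and 1 affected humerus sample lies far below the rest for CILP, at 8.96.

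COL2A1 read 11.77, 12.52, 12.33 and 12.38 in affected femur, against 11.76, 12.27, 11.63 and 12.16 in non-affected femur. In affected humerus it read 10.51 (lowest), 11.45 (median) and 12.44 (highest), and in non-affected humerus 11.82 (lowest), 12.14 (median) and 12.58 (highest). The affected humerus samples formed the widest group, with 4 of 7 below every non-affected humerus sample and the other 3 inside the non-affected range. The difference between affected and non-affected was 0.29 (SE 0.32, 95% confidence interval -0.38 to 0.97, adjusted p = 0.638) in the femur. In the humerus it was -0.62 (SE 0.26, 95% confidence interval -1.15 to -0.087, adjusted p = 0.759). The unadjusted p of the humerus difference was 0.0248, and without affected humerus 2, the lowest sample, the difference was -0.44, also not called. The second COL2A1 probe set read 5.33 to 6.51 in affected femur, 5.87 to 6.29 in non-affected femur, 5.50 to 5.97 in affected humerus and 5.64 to 5.99 in non-affected humerus. It gave differences of -0.060 in the femur and -0.062 in the humerus. Both probe sets correlated at r = 0.52 across the 21 samples.

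COL11A1 read 10.11, 10.04, 11.53 and 9.98 in affected femur, against 9.59, 9.76, 9.29 and 9.87 in non-affected femur. All 4 affected femur samples lay above all 4 non-affected ones, although the nearest values, 9.98 and 9.87, were close and affected femur 3 stood alone at 11.53. The difference was 0.79 (SE 0.26, 95% confidence interval 0.25 to 1.33, adjusted p = 0.119), or 1.73-fold on the linear scale, which did not pass the test. It came to 0.42 (adjusted p = 0.313) without affected femur 3. Non-overlapping groups occurred in 8.08% of all tested probe sets in this comparison. In the humerus the gene read 10.03 (lowest), 10.28 (median) and 10.72 (highest) in affected samples and 10.06 (lowest), 10.43 (median) and 10.73 (highest) in non-affected samples. These groups overlapped, with a difference of -0.17 (SE 0.20, adjusted p = 0.891). The second probe set stayed between 4.31 and 5.30 in all 21 samples and was not tested.

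ACAN read 13.55, 13.29, 13.16 and 13.23 in affected femur, against 13.12, 13.67, 13.07 and 13.16 in non-affected femur. In the humerus it read 13.11 (lowest), 13.65 (median) and 13.82 (highest) in affected and 13.38 (lowest), 13.73 (median) and 14.02 (highest) in non-affected samples. Affected and non-affected groups overlapped in both joints. The difference was 0.053 (SE 0.17, 95% confidence interval -0.30 to 0.40, adjusted p = 0.883) in the femur and -0.13 (SE 0.13, adjusted p = 0.870) in the humerus. Apart from non-affected femur 3 and affected femur 1, every femur sample read lower than every humerus sample except affected humerus 2, which read 13.11. The second ACAN probe set lay close to the filter at 5.24 to 5.96 in affected femur, 5.37 to 5.96 in non-affected femur, 5.38 to 5.69 in affected humerus and 5.19 to 5.61 in non-affected humerus. It did not follow the first (r = -0.20).

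HAPLN1 read 11.94, 12.13, 12.47 and 11.11 in affected femur, against 11.67, 10.33, 10.49 and 10.90 in non-affected femur. Each of the 4 affected samples exceeded 10.85, the mean of the non-affected ones, but the groups overlapped, because affected femur 4 at 11.11 lay below the averaged pair of non-affected arrays at 11.67. The difference was 1.07 (SE 0.36, 95% confidence interval 0.32 to 1.81, adjusted p = 0.126), or 2.09-fold on the linear scale. The second probe set read 11.46, 11.26, 11.72 and 10.46 in affected femur, against 11.05, 9.87, 9.86 and 10.39 in non-affected femur, with a difference of 0.93 (SE 0.38, adjusted p = 0.184). Both probe sets followed each other closely (r = 0.98 across the 21 samples). In the humerus the first read 11.42 (lowest), 12.40 (median) and 12.69 (highest) in affected and 11.58 (lowest), 12.51 (median) and 13.22 (highest) in non-affected samples. The difference there was -0.097 (SE 0.28, adjusted p = 0.968). Non-affected femur held the 3 lowest values of the series, 10.33, 10.49 and 10.90.

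COMP varied least of the 7 genes between samples, with 13.73, 13.88, 13.86 and 13.98 in affected femur and 13.71, 13.87, 13.48 and 13.93 in non-affected femur. The humerus samples read 13.38 (lowest), 13.67 (median) and 13.71 (highest) when affected and 13.69 (lowest), 13.79 (median) and 13.84 (highest) when non-affected. All 7 affected humerus samples lay below the non-affected mean of 13.77, yet the groups overlapped and the difference was -0.16 (SE 0.085, 95% confidence interval -0.34 to 0.019, adjusted p = 0.768). In the femur it was 0.12 (SE 0.11, adjusted p = 0.551). The second COMP probe set ran the other way in the humerus, at 8.51 to 9.14 in affected and 8.39 to 8.61 in non-affected samples, with a difference of 0.24 (SE 0.11, adjusted p = 0.759). Across the 21 samples both COMP probe sets correlated at r = -0.11.

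CILP showed the widest spread. It read 12.96, 13.53, 13.28 and 13.40 in affected femur, against 13.18, 13.53, 12.36 and 13.45 in non-affected femur, with overlapping groups and a difference of 0.16 (SE 0.55, adjusted p = 0.890). In the humerus it read 8.96 (lowest), 12.14 (median) and 12.65 (highest) in the 7 affected samples and 12.29 (lowest), 12.70 (median) and 13.72 (highest) in the 6 non-affected samples. Every affected humerus sample lay below the non-affected mean of 12.85, and 4 of 7 lay below the lowest non-affected sample. The difference was -1.18 (SE 0.44, 95% confidence interval -2.09 to -0.27, adjusted p = 0.697), and 0.0238% of all tested probe sets had a more negative one. Without affected humerus 2, at 8.96, it was -0.73, also not called. The second CILP probe set read 5.50 to 6.18 in affected and 5.66 to 6.38 in non-affected humerus and differed by -0.10 (SE 0.15, adjusted p = 0.919).

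SOX9 read 10.33, 9.34, 10.66 and 9.81 in affected femur, against 8.72, 9.42, 9.17 and 10.10 in non-affected femur. The difference in the femur was 0.68 (SE 0.34, 95% confidence interval -0.031 to 1.39, adjusted p = 0.264), with overlapping groups. In the humerus it read 7.40 (lowest), 8.57 (median) and 8.99 (highest) in affected and 8.38 (lowest), 8.57 (median) and 9.20 (highest) in non-affected samples. The difference there was -0.31 (SE 0.27, 95% confidence interval -0.87 to 0.25, adjusted p = 0.852). Group means ran from 10.04 ± 0.58 in affected femur through 9.36 ± 0.58 in non-affected femur to 8.71 ± 0.39 in non-affected humerus and 8.41 ± 0.55 in affected humerus (SD). Of the neighbours in that order, affected and non-affected samples of one joint did not pass the test, and neither did non-affected femur against non-affected humerus, at 0.64 (SE 0.31, adjusted p = 0.113).

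Considered as a set, the 7 genes gave no call for disease status. With limma and Benjamini-Hochberg adjustment, 0 of 12 probe sets were called over both joints (background 0% of all tested probe sets), 0 of 12 in the femur (background 1.14%) and 0 of 12 in the humerus (background 0%). At an unadjusted p under 0.05 the counts were 1 of 12 over both joints, 3 of 12 in the femur and 3 of 12 in the humerus, against 7.28%, 20.4% and 6.55% of all tested probe sets. Robust variance estimation and array weights also called 0 of 12 in each comparison, as did leaving out any 1 of the 21 samples. In the femur all 7 genes had a positive difference at their stronger probe set, with a median of 0.29 against 0.01 over all tested probe sets, of which 51.1% were positive. In the humerus all 7 had a negative difference, with a median of -0.17 against -0.01 over all tested probe sets, of which 46.6% were positive. Counted over the 12 probe sets, 11 were positive in the femur and 2 in the humerus, those of the second ACAN and COMP probe sets. COL2A1, COMP and CILP were correlated across samples, so the 7 signs are not separate observations.

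**Figure D2:**
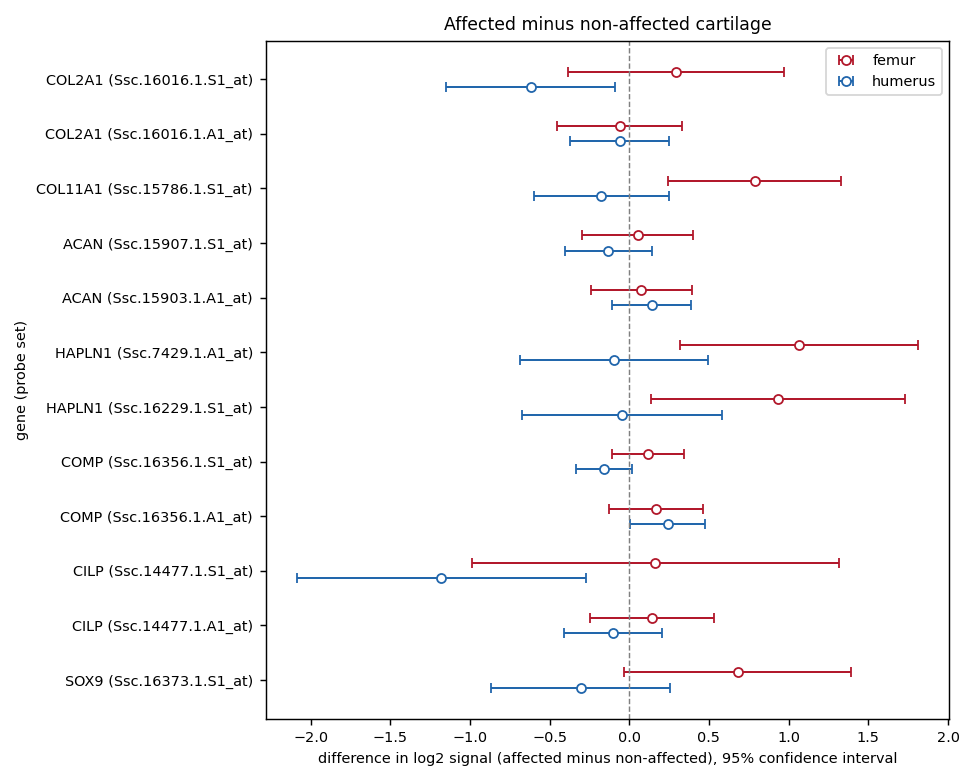
Difference in log2 signal between affected and non-affected cartilage (x axis) for the 12 tested probe sets (y axis), with 95% confidence intervals, in the femur (red) and the humerus (blue). The open points mean that no difference passed the adjusted test; the femur values of HAPLN1 (1.07 and 0.93) and the humerus value of CILP (-1.18) lie farthest from 0.

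The femur and humerus differences were also set against each other directly, as the femur difference minus the humerus difference. For CILP this was 1.34 (SE 0.70, 95% confidence interval -0.12 to 2.81, adjusted p = 0.297). It was 1.16 (SE 0.46, adjusted p = 0.197) for HAPLN1 and 0.99 (SE 0.43, adjusted p = 0.231) for SOX9. For COL11A1 it was 0.96 (SE 0.33, adjusted p = 0.159) and for COL2A1 0.91 (SE 0.41, adjusted p = 0.241), whereas COMP gave 0.28 and ACAN 0.19. Without affected femur 3 the COL11A1 value was 0.59 (adjusted p = 0.251), and without affected humerus 2 that of CILP was 0.89 (adjusted p = 0.282). All 7 genes had a positive value at their stronger probe set, and 10 of 12 probe sets did, beside 53.5% of all tested probe sets. Of the 12 probe sets 0 were called, against a background of 0.268%. Unadjusted p-values under 0.05 were found for 4 of 12 probe sets, those of COL2A1, COL11A1, HAPLN1 and SOX9, and for 18.9% of all tested probe sets. Beside these values, the myeloid mean ran the opposite way, at 4.67 to 6.19 in affected and 6.11 to 7.88 in non-affected femur and 7.02 to 9.56 in affected and 5.47 to 8.85 in non-affected humerus. Of the 8 myeloid genes tested, all 8 had a negative difference between affected and non-affected femur and all 8 a positive one in the humerus, though 0 of 8 passed the adjusted test in either joint. Over all tested probe sets 51.1% had a positive difference in the femur and 46.6% in the humerus. An unadjusted p under 0.05 was found for 7 of 8 in the femur and 0 of 8 in the humerus, beside 20.4% and 6.55% of all tested probe sets. With the myeloid mean as a covariate, the femur difference was 0.98 (adjusted p = 0.285) for HAPLN1 and 0.68 (adjusted p = 0.301) for COL11A1. It was 0.51 (adjusted p = 0.562) for SOX9, 0.061 for COMP and 0.0085 for ACAN. For COL2A1 it turned negative, at -0.14 (adjusted p = 0.874), as it did for CILP, at -0.45 (adjusted p = 0.754). The femur difference minus the humerus difference was then 0.29 (adjusted p = 0.859) for COL2A1 and 0.47 (adjusted p = 0.874) for CILP. The myeloid ranges of affected and non-affected femur hardly overlapped, which makes femur differences less precise in fits with this mean. Whether myeloid content accounts for the status differences was not tested. Over all settings other than leaving out a sample the adjusted p of the femur difference ranged from 0.0906 to 0.285 for HAPLN1 and from 0.0623 to 0.317 for COL11A1.

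Femur and humerus differed in 7 of the 12 probe sets over both disease states, 4 higher and 3 lower in femur, beside 51.8% of all tested probe sets (17.6% higher, 34.2% lower). With a background of that size, the members' share is no result about them, and the values of the genes carry the description. SOX9 was higher in femur by 1.15 (SE 0.24, 95% confidence interval 0.65 to 1.64, adjusted p = 5.13e-04), and all 8 femur samples lay above the humerus mean of 8.55. Within affected cartilage SOX9 was higher in femur by 1.63 (SE 0.30, adjusted p = 4.85e-04), 3.09-fold, and the lowest femur sample, 9.34, lay above the highest humerus sample, 8.99. Within non-affected cartilage its difference was 0.64 (SE 0.31, adjusted p = 0.113). Centring each array on its median, which moved the median difference of all tested probe sets to 0.05 from -0.12, gave SOX9 1.32 (adjusted p = 1.60e-04) over both states and 0.82 (adjusted p = 0.0485) in non-affected cartilage, where array weights gave 0.80 (adjusted p = 0.0402). With the myeloid mean as a covariate the difference in affected cartilage was 1.32 (adjusted p = 0.118), and with the bone mean 1.80 (adjusted p = 0.00669). Over all alternatives other than leaving out a sample, the adjusted p of SOX9 in affected cartilage lay between 2.62e-04 and 0.118.

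**Figure D3:**
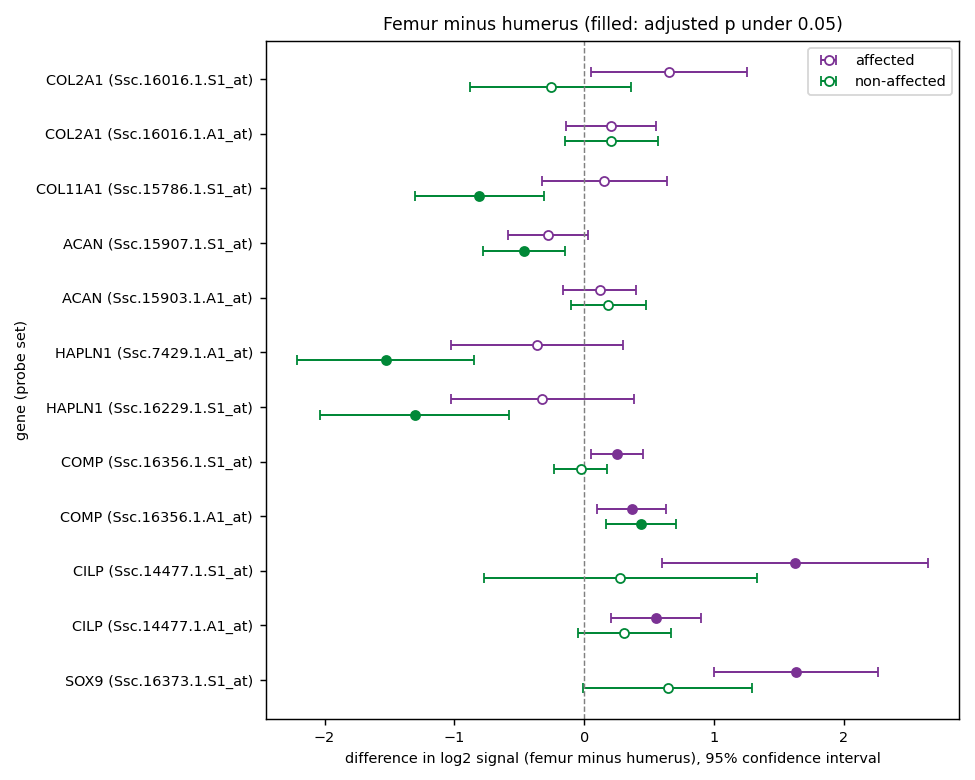
Difference in log2 signal between femur and humerus (x axis) for the 12 tested probe sets (y axis), with 95% confidence intervals, in affected (purple) and non-affected (green) cartilage; filled points passed the adjusted test. In affected cartilage the 5 filled points are all positive, led by SOX9 (1.63) and CILP (1.62), and in non-affected cartilage 4 of 5 filled points are negative, led by HAPLN1 (-1.53).

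CILP was also higher in femur. Its first probe set was higher in femur by 0.97 (SE 0.37, 95% confidence interval 0.19 to 1.75, adjusted p = 0.0349) over both disease states. In affected cartilage it was higher by 1.62 (SE 0.49, 95% confidence interval 0.60 to 2.65, adjusted p = 0.0137), 3.08-fold, and the lowest femur sample at 12.96 lay above the highest humerus sample at 12.65. In non-affected cartilage it differed by 0.28 (SE 0.51, adjusted p = 0.694). The second CILP probe set was higher by 0.43 (SE 0.12, adjusted p = 0.00489) over both states and by 0.55 (SE 0.17, adjusted p = 0.0130) in affected cartilage. Its call over both states was lost with the bone mean as a covariate, at 0.12 (adjusted p = 0.593), and with the myeloid mean, at 0.29 (adjusted p = 0.130). Its affected call was lost with the bone mean, at 0.24 (adjusted p = 0.376), with the myeloid mean, at 0.33 (adjusted p = 0.464), and without affected femur 4, at 0.40 (adjusted p = 0.0720). In non-affected cartilage it gave 0.31 (SE 0.17, adjusted p = 0.161), and it was called after centring, at 0.49 (adjusted p = 0.0404), and after quantile normalization, at 0.49 (adjusted p = 0.0416). Over both states the call of the first probe set was lost without affected femur 1 (adjusted p = 0.0537), 2 (0.0715), 3 (0.0639) or 4 (0.0700), or non-affected femur 3 (0.0502). With the bone mean as a covariate the first probe set gave 0.38 (adjusted p = 0.637) over both states and 1.03 (adjusted p = 0.238) in affected cartilage, and with the myeloid mean 0.22 (adjusted p = 0.703) and 0.55 (adjusted p = 0.682).

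COMP was higher in femur at its second probe set, by 0.40 (SE 0.089, 95% confidence interval 0.21 to 0.59, adjusted p = 9.96e-04) over both states. It was 0.36 (SE 0.13, adjusted p = 0.0285) in affected and 0.44 (SE 0.13, adjusted p = 0.0136) in non-affected cartilage. Its first probe set was higher in affected cartilage, by 0.25 (SE 0.096, adjusted p = 0.0447), with the lowest femur sample at 13.73 and the highest humerus sample at 13.71. Over both states it gave 0.12 (SE 0.074, adjusted p = 0.198), and it was called after centring, at 0.29 (adjusted p = 0.00391), after quantile normalization, at 0.31 (adjusted p = 0.00166), and without non-affected femur 4, at 0.17 (adjusted p = 0.0464). In non-affected cartilage the first gave -0.028, which turned to 0.15 after centring and 0.15 after quantile normalization. The call of the first probe set in affected cartilage was lost without any 1 of 12 samples, affected femur 2, 3 or 4, affected humerus 1, 2, 3, 4 or 5-6, or non-affected humerus 1, 3, 4 or 6, with adjusted p-values between 0.0503 and 0.131. It was also lost with no filter, with array weights, with either marker mean as a covariate and with only the groups compared in the fit. Over the alternatives other than leaving out a sample its adjusted p ran from 7.83e-04 to 0.588. The call of the second probe set in affected cartilage was lost without affected femur 2 (0.0570) or 3 (0.110) or affected humerus 4 (0.0512) or 5-6 (0.0572), with the myeloid mean as a covariate, at 0.32 (adjusted p = 0.354), and with the bone mean, at 0.38 (adjusted p = 0.110). In non-affected cartilage it was lost without non-affected femur 4 (0.0627).

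HAPLN1 was lower in femur, with a difference of -0.93 (SE 0.26, 95% confidence interval -1.46 to -0.40, adjusted p = 0.00495) at its first and -0.80 (SE 0.26, adjusted p = 0.0147) at its second probe set over both states. In non-affected cartilage the differences were -1.53 (SE 0.33, 95% confidence interval -2.21 to -0.85, adjusted p = 0.00176) and -1.30 (SE 0.35, adjusted p = 0.00749), a 2.89-fold lower femur signal at the first. All 4 non-affected femur samples lay below the non-affected humerus mean of 12.38, but 1 of them, at 11.67, exceeded the lowest non-affected humerus sample at 11.58. In affected cartilage the first probe set differed by -0.37 (SE 0.32, adjusted p = 0.381). After centring the first gave -0.76 (adjusted p = 0.0136) over both states, and with the bone mean as a covariate the values were -0.88 (adjusted p = 0.101) at the first and -0.73 (adjusted p = 0.183) at the second probe set.

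COL11A1 was lower in femur among non-affected samples, with a difference of -0.81 (SE 0.24, 95% confidence interval -1.30 to -0.31, adjusted p = 0.0127), and the highest femur sample at 9.87 lay below the lowest humerus sample at 10.06. Among affected samples it differed by 0.15 (SE 0.23, not called), which was -0.22 without affected femur 3. The non-affected difference was -0.62 (adjusted p = 0.127) with the bone mean as a covariate. Over both states it differed by -0.31 (SE 0.19, adjusted p = 0.179). That difference was -0.53 (adjusted p = 0.00206) without affected femur 3 and -0.60 (adjusted p = 0.0423) with the myeloid mean as a covariate. Both of these were called.

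ACAN was lower in femur at its first probe set, with differences of -0.37 (SE 0.11, adjusted p = 0.00662) over both states and -0.46 (SE 0.15, adjusted p = 0.0228) in non-affected cartilage. Neither call held after centring, which gave -0.20 (adjusted p = 0.139) and -0.28 (adjusted p = 0.170), after quantile normalization, which gave -0.077 (adjusted p = 0.536) and -0.18 (adjusted p = 0.322), or with the bone mean as a covariate, which gave -0.26 (adjusted p = 0.236) and -0.36 (adjusted p = 0.177). Its call in non-affected cartilage was lost without non-affected femur 1-2 (adjusted p = 0.0624), 4 (0.0746) or 5 (0.0573). In affected cartilage its difference of -0.28 had a call without affected humerus 2 (0.0480) and turned to 0.023 after quantile normalization. The second ACAN probe set ran the other way, with differences of 0.15 (SE 0.095, adjusted p = 0.189) over both states, 0.12 (SE 0.13, adjusted p = 0.508) in affected and 0.18 (SE 0.14, adjusted p = 0.311) in non-affected cartilage. It was called over both states after centring, at 0.32 (adjusted p = 0.00700), after quantile normalization, at 0.30 (adjusted p = 0.0127), and without affected femur 4, at 0.22 (adjusted p = 0.0418). In non-affected cartilage it was called after centring, at 0.37 (adjusted p = 0.0397).

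COL2A1 did not pass between joints at either probe set, but several alternatives called it higher in femur. The first gave 0.65 (SE 0.29, adjusted p = 0.0783) in affected and -0.26 (SE 0.30, adjusted p = 0.515) in non-affected cartilage. The affected difference passed after centring, at 0.81 (adjusted p = 0.0318), after quantile normalization, at 0.80 (adjusted p = 0.0268), and with all 23 arrays, at 0.67 (adjusted p = 0.0493). It also passed without affected humerus 3 (0.0464), 7 (0.0286) or 8 (0.0472). The second probe set gave 0.21 (SE 0.12, adjusted p = 0.146) over both states and 0.21 (SE 0.17, adjusted p = 0.343) in affected cartilage. Over both states it passed after centring, at 0.38 (adjusted p = 0.0122), after quantile normalization, at 0.36 (adjusted p = 0.0161), and without affected femur 1, at 0.31 (adjusted p = 0.0183). In affected cartilage it passed without affected femur 1, at 0.42 (adjusted p = 0.0340). With the covariates the first probe set turned negative over both states, at -0.37 (adjusted p = 0.378) with the bone and -0.31 (adjusted p = 0.290) with the myeloid mean.

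Within each disease state, 5 of 12 probe sets were called between joints in affected cartilage, all higher in femur (background 38.5%, with 13.9% higher and 24.6% lower), and 5 of 12 in non-affected cartilage, 1 higher and 4 lower in femur (background 36.6%, with 11.6% higher and 25.0% lower). After centring, 7 of 12 were higher and 2 of 12 lower over both states (background 29.2% higher, 22.4% lower). In affected cartilage 6 of 12 were then higher and 0 of 12 lower (background 22.0% higher, 15.8% lower), and in non-affected cartilage 4 of 12 higher and 3 of 12 lower (background 21.3% higher, 15.7% lower). With the bone mean as a covariate 2 of 12 were called over both states (background 28.4%), 1 of 12 in affected cartilage (background 16.6%) and 3 of 12 in non-affected cartilage (background 29.6%). With the myeloid mean 0 of 12 were called in affected cartilage (background 2.51%), while calls remained over both states and in non-affected cartilage. For those remaining calls the share of all tested probe sets is not given, so they are no result about the members. The probe sets of SOX9, COMP and CILP whose joints did not overlap in affected cartilage numbered 3 of 12, beside 20.2% of all tested probe sets, and COL11A1 was the 1 of 12 without overlap in non-affected cartilage, beside 21.1%. The femur against humerus comparisons in affected and in non-affected cartilage share no sample, but the difference between them is the same quantity as the joint-dependent status difference given above, for which 0 of 12 were called.

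**Figure D4:**
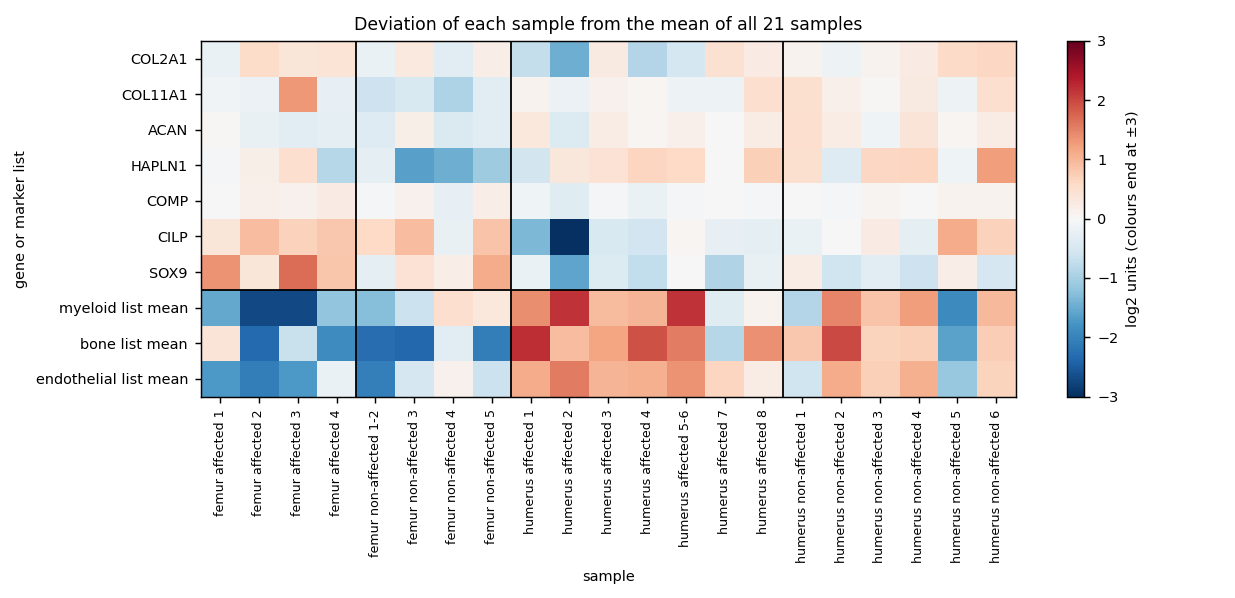
Deviation of each of the 21 samples (columns) from the mean of all samples, in log2 units, for the 7 genes and for the mean of the myeloid, bone and endothelial marker lists (rows); vertical lines part affected femur, non-affected femur, affected humerus and non-affected humerus. Affected humerus 2 is low for COL2A1 (10.51), CILP (8.96) and SOX9 (7.40), and the marker rows are mostly negative in femur and positive in humerus, with non-affected humerus 5 on the side of the femur samples.

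Within each joint the 21 pairs among the 7 genes were correlated across samples, as were the genes with the myeloid and the bone mean, 70 relations in all over which p-values were adjusted. Each gene was read at its brightest probe set only. With group means removed, both COMP probe sets correlated with each other at r = -0.59 and both CILP probe sets at r = 0.016. The relations below therefore describe the brightest probe sets. The 2 samples left out below were chosen on a single variable of each relation. This was the marker mean where present, COL2A1 in its gene pairs, COMP against CILP and COL11A1 against SOX9. COL2A1 and COMP were correlated in the humerus (n = 13), with r = 0.91 (permutation p = 6.00e-05, adjusted p = 0.00385). Spearman rho was 0.77 (permutation p = 0.00313, adjusted p = 0.0660), and r was 0.74 without the 2 samples farthest from the median. The same pair in the femur (n = 8, exact permutation test) gave r = 0.86 (permutation p = 0.00320, adjusted p = 0.0448). Spearman rho was 0.79 (permutation p = 0.0279, adjusted p = 0.140), and r was 0.73 without the 2 samples farthest from the median.

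COMP and CILP in the humerus gave r = 0.92 (permutation p = 1.10e-04, adjusted p = 0.00385). Spearman rho was 0.83 (permutation p = 9.50e-04, adjusted p = 0.0660), and r was 0.89 without the 2 samples farthest from the median. In the femur, by the exact test over n = 8, they gave r = 0.92 (permutation p = 0.00501, adjusted p = 0.0521). Spearman rho was 0.76 (permutation p = 0.0368, adjusted p = 0.161), and r was 0.75 without the 2 samples farthest from the median. For COL2A1 and CILP the humerus gave r = 0.81 (permutation p = 6.90e-04, adjusted p = 0.0161). Spearman rho was 0.60 (permutation p = 0.0342, adjusted p = 0.159), and r was 0.64 without the 2 samples farthest from the median. In the femur the exact test gave r = 0.83 (permutation p = 0.00263, adjusted p = 0.0448). Spearman rho was 0.79 (permutation p = 0.0279, adjusted p = 0.140), and r was 0.84 without the 2 samples farthest from the median. After the affected and non-affected means were removed, r was 0.83 for COL2A1 with COMP, 0.84 for COL2A1 with CILP and 0.93 for COMP with CILP in the femur, and 0.88, 0.75 and 0.89 in the humerus. Against the bone mean, r was -0.53 for COL2A1, -0.53 for COMP and -0.72 for CILP in the femur. In the humerus these values were -0.56, -0.46 and -0.35. With group means removed they were -0.82, -0.76 and -0.85 in the femur and -0.50, -0.36 and -0.23 in the humerus. No relation to the bone mean passed the adjusted test. Whether bone content accounts for the relations among these genes was not tested. No relation passed the adjusted test by Spearman rho (0 of 70).

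**Figure D5:**
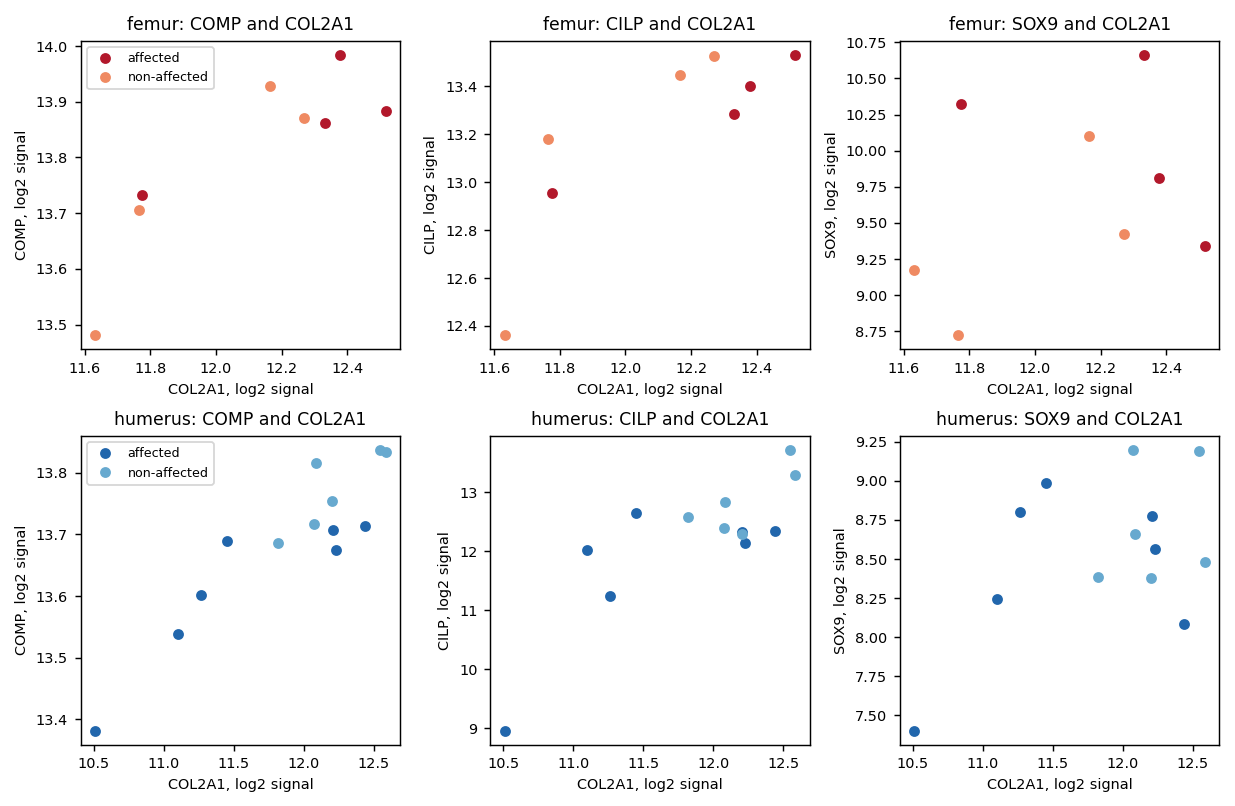
Log2 signals of COMP, CILP and SOX9 (y axes) against COL2A1 (x axes), with a point for each femur sample in the upper row and each humerus sample in the lower row, coloured by disease state. Each gene is shown at its brightest probe set. COMP and CILP run with COL2A1 in both joints (r from 0.81 to 0.91), and SOX9 has r = 0.30 in the femur and 0.48 in the humerus, neither past the test.

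SOX9 and COL2A1 gave no relation that passed the test in either joint. Over the 13 humerus samples they gave r = 0.48 (permutation p = 0.0986, adjusted p = 0.329). Spearman rho was 0.16 (permutation p = 0.593, adjusted p = 0.813), and r was -0.23 without the 2 samples farthest from the median. The 8 femur samples gave, by the exact test, r = 0.30 (permutation p = 0.459, adjusted p = 0.684). Spearman rho was 0.33 (permutation p = 0.428, adjusted p = 0.666), and r was -0.49 without the 2 samples farthest from the median. After removal of group means r was 0.39 in the humerus and 0.050 in the femur. SOX9 and COL11A1 in the femur gave, by the exact test, r = 0.77 (permutation p = 0.0129, adjusted p = 0.1003). Spearman rho was 0.81 (permutation p = 0.0218, adjusted p = 0.140), and r was 0.74 without the 2 samples farthest from the median. After removal of group means r was 0.64. Against the myeloid mean the strongest relation in the femur was that of HAPLN1, which by the exact test had r = -0.88 (permutation p = 0.00521, adjusted p = 0.0521). Spearman rho was -0.93 (permutation p = 0.00223, adjusted p = 0.0660), and r was -0.89 without the 2 samples farthest from the median. After removal of group means r was -0.72. In the humerus HAPLN1 gave r = 0.13. In the humerus the strongest relation to the myeloid mean was that of COL2A1, with r = -0.64 (permutation p = 0.0171, adjusted p = 0.109). Spearman rho was -0.68 (permutation p = 0.0125, adjusted p = 0.140), and r was -0.69 without the 2 samples farthest from the median. After removal of group means r was -0.58. Of the 21 member pairs, 19 were positive in the femur and 19 in the humerus. The share of positive pairs among all tested probe sets was not computed, so this count is no result about the members.

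Other genes of the cartilage matrix and its synthesis were read from lists. Of 27 further matrix genes listed, 5 had a tested probe set, and over both states TNC, which encodes tenascin C, was higher in femur by 1.14 (SE 0.25, adjusted p = 7.42e-04) and FN1, fibronectin, lower with a difference of -0.28 (SE 0.082, adjusted p = 0.00758). For disease status 0 of 5 passed in either joint. COL6A3, a collagen VI chain of the matrix around chondrocytes, read 12.34 in affected and 12.72 in non-affected humerus, a difference of -0.38 (SE 0.16, adjusted p = 0.759). The median difference of the 5 was 0.11 in the femur and -0.35 in the humerus, against 0.01 and -0.01 over all tested probe sets.

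Among 21 listed partners of SOX9 and regulators of chondrocytes, 6 were tested. Over both states 4 of 6 were higher and 1 of 6 lower in femur, beside 17.6% and 34.2% of all tested probe sets. PTHLH, the parathyroid hormone related signal that holds back chondrocyte maturation, was higher by 0.63 (SE 0.25, adjusted p = 0.0394). WWP2, a ubiquitin ligase gene that hosts a microRNA of cartilage, was higher by 0.41 (SE 0.16, adjusted p = 0.0388), and ZNF219, a partner of SOX9, by 0.34 (SE 0.12, adjusted p = 0.0184). PTH1R, the receptor for that signal, was lower with a difference of -2.01 (SE 0.40, adjusted p = 3.92e-04) and means of 8.90 in femur and 10.94 in humerus. Bone cells also carry this receptor, and the part of the lower bone mean of the femur in this difference was not tested. None of the 6 passed for disease status in the femur or the humerus.

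Enzymes that build the sugar chains of aggrecan and other proteoglycans gave no call for disease status. All 9 tested of 26 listed had a positive difference in the femur, with a median of 0.33, and 8 of 9 a negative one in the humerus, with a median of -0.29. Over all tested probe sets the medians were 0.01 and -0.01, and 51.1% and 46.6% of the differences were positive. In either joint 0 of 9 were called. CHSY1, which polymerises chondroitin, read 10.46 in affected and 10.08 in non-affected femur, a difference of 0.37 (SE 0.21, adjusted p = 0.329), and in the humerus it differed by -0.34 (SE 0.17, adjusted p = 0.767). Between joints 3 of 9 were lower in femur over both states, beside 34.2% of all tested probe sets, with a difference for IMPAD1, a Golgi phosphatase of the sulphation pathway, of -0.81 (SE 0.13, adjusted p = 3.73e-05). The differences were, for PAPSS2, which makes the sulphate donor, -0.72 (SE 0.23, adjusted p = 0.0138) and for UGP2, which makes UDP-glucose, -0.44 (SE 0.16, adjusted p = 0.0244).

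Of 26 listed genes for folding and processing collagen, 13 were tested and 0 passed for status in either joint. Over both states 3 of 13 were higher and 2 of 13 lower in femur, beside 17.6% and 34.2% of all tested probe sets. These came with differences for P4HA2, a prolyl hydroxylase subunit, of 0.73 (SE 0.20, adjusted p = 0.00569) and for CREB3L2, a transcription factor of secretory genes in chondrocytes, of 0.83 (SE 0.16, adjusted p = 3.11e-04). The difference was 0.62 (SE 0.13, adjusted p = 5.22e-04) for PLOD1, a lysyl hydroxylase, and for PCOLCE2, an enhancer of procollagen cleavage, it was -1.02 (SE 0.19, adjusted p = 1.93e-04). Genes that break down aggrecan and collagen II, or restrain that breakdown, numbered 14 tested of 19 listed, with 0 of 14 called for status in either joint and 8 of 14 lower in femur over both states, beside 34.2% of all tested probe sets. MMP3, stromelysin, read 5.76 in affected and 8.86 in non-affected femur, a difference of -3.10 (SE 0.77, adjusted p = 0.0534). In affected cartilage it was lower in femur with a difference of -4.11 (SE 0.69, adjusted p = 2.08e-04). ADAMTS1, an aggrecan-cleaving protease, was lower in femur with a difference of -2.49 (SE 0.50, adjusted p = 3.59e-04) over both states, and CTSK, the cathepsin of osteoclasts, with one of -1.48 (SE 0.34, adjusted p = 0.00258) in affected cartilage.

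Centring moved some of these calls between joints over both states but changed the sign of none of the genes called in these lists, as was also so for quantile normalization. FN1 was at -0.11 (adjusted p = 0.286) after centring and -0.18 (adjusted p = 0.0652) after quantile normalization, and UGP2 at -0.27 (adjusted p = 0.136) and -0.33 (adjusted p = 0.0716), so that neither was called. After centring, when 29.2% of all tested probe sets were called higher and 22.4% lower, 1 of 5 higher and 0 of 5 lower were called in femur among the matrix genes, 4 of 6 higher and 1 of 6 lower among the regulators and 2 of 9 higher and 2 of 9 lower among the genes of sugar chain synthesis. The counts were 5 of 13 higher and 1 of 13 lower for collagen processing and 1 of 14 higher and 6 of 14 lower for matrix breakdown.

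The genes most like each member in their sample-to-sample pattern were sought among all named, tested probe sets, by Pearson r over the 21 samples after the means of the 4 groups were removed. Those nearest COL2A1 were IL12B (r = 0.91, plain r = 0.66), PMEPA1 (r = 0.90, plain r = 0.92) and NID2 (r = 0.88, plain r = 0.86). Those nearest COL11A1 were DHX30 (r = 0.75, plain r = 0.68), PCLAF (r = 0.74, plain r = 0.74) and CCNB2 (r = 0.74, plain r = 0.69). For ACAN they were TIE1 (r = 0.86, plain r = 0.89), CNOT1 (r = 0.81, plain r = -0.34) and FSHR (r = 0.80, plain r = 0.77). For HAPLN1 they were CAV2 (r = 0.91, plain r = 0.91), CDC37L1 (r = 0.90, plain r = 0.92) and TMEM19 (r = 0.90, plain r = 0.85). COMP was nearest to DDR1 (r = 0.86, plain r = 0.91), CD93 (r = 0.84, plain r = 0.81) and PLEK2 (r = 0.81, plain r = 0.85), while CILP was nearest to EIF1 (r = 0.90, plain r = 0.87), NID2 (r = 0.86, plain r = 0.72) and CAMK1 (r = 0.82, plain r = 0.37). For SOX9 they were VRK3 (r = 0.78, plain r = 0.54), POLD3 (r = 0.74, plain r = 0.41) and DCAF7 (r = 0.72, plain r = 0.093). NID2, which encodes a basement membrane nidogen, stood among the nearest 3 of both COL2A1 and CILP. These values rank all named probe sets over few samples and are given as a description. All samples share the arrays' normalization, and several of the plain r values lie far below those with group means removed.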

How the data were processed

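Total RNA was labelled with biotin and hybridised to Affymetrix Porcine Genome Arrays, per the labels' protocols. The deposited table holds log2 values, 1 per probe set and array, for 24123 probe sets, of which 124 are controls, and 23 arrays. GCOS 1.1.1 is named in the submitters' processing notes, and how the arrays were normalised is not given in the sources used. Deposited log2 values have a floor at 4 and reach 17.64.

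Genes were named from the platform annotation, which gives 1 symbol for 10099 probe sets, several for 198 and none used here for 13826. Arrays of a group whose values differed with an SD under 0.25 were averaged as 1 sample. The first probe set of a gene is its brightest. The averaging applied to affected humerus 5 and 6 (SD 0.107) and non-affected femur 1 and 2 (SD 0.213), where the next closest pair had 0.340 and the median of the other pairs was 0.518. They differed by less than any other pair and were counted as 1 sample each. Probe sets with a mean below the 30th percentile (5.30) were left out, leaving 16799. limma 3.58.1 in R 4.3.3 fitted site and status, or the 4 group means, with Benjamini-Hochberg adjustment over all tested probe sets and calls at an adjusted p under 0.05. The number of arrays limits the precision. The procedure was tested on simulated data. Relations between members across samples used Pearson r and Spearman rho with exact permutation in the femur and 100000 permutations in the humerus, two-sided (Python 3.11.15, numpy 2.4.6, pandas 2.3.3).

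All member probe sets are named, and from each other list up to 4 genes per comparison, called ones first by size of difference, otherwise those with the smallest p. List genes with several probe sets are read at the brightest. Members and lists were chosen with earlier results of these data known. The 12 alternatives other than leaving out a sample changed the filter, scaling, variance model, array weights, probe set choice, pairs, samples fitted and marker covariates.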

Additional observations from a re-analysis of the deposited data

Results flagged for a closer look

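Of 52 groups of member values checked for a sample far from the rest, 3 held one, and chance flags about 1 in 20 such groups. COL11A1 read 11.53 in affected femur 3, with the nearest affected femur sample at 10.11, a gap of 0.917 of the group's range. ACAN read 13.67 in non-affected femur 3, with the nearest non-affected femur sample at 13.16, a gap of 0.847 of the range. CILP read 8.96 in affected humerus 2, with the nearest affected humerus sample at 11.25, a gap of 0.619 of the range.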

How the results depend on the processing

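No status call was made among the members under any of the alternatives or without any 1 sample. The joint calls numbered 7 over both states, 5 in affected and 5 in non-affected cartilage, beside 51.8%, 38.5% and 36.6% of all tested probe sets. They numbered 6 to 8, 3 to 6 and 3 to 5 when a sample was left out. With the brightest probe set per gene, which leaves fewer probe sets, they numbered 4, 3 and 3. With the bone mean as a covariate they numbered 2, 1 and 3 (background 28.4%, 16.6% and 29.6%). With the myeloid mean they numbered 6, 0 and 5, and in affected cartilage the background was then 2.51%. Counts given here without a background are not read as results about the members. Under the alternatives other than leaving out a sample, 788 values kept direction and side of the threshold, 28 changed sign, 15 gained and 25 lost a call. The cause was not tested. No paired analysis was possible because the labels give no shared replicate numbers and no sib identity.

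Sign changes under centring were -0.022 for the second COL2A1 probe set in the comparison of both joints' status differences and 0.15 for COMP between joints in non-affected cartilage. Quantile normalization gave 0.0059 for the second HAPLN1 probe set in the humerus, -0.012 for the second COL2A1 probe set in that joint comparison, 0.023 for ACAN between joints in affected and 0.15 for COMP in non-affected cartilage. Array weights gave the second COL2A1 probe set 0.013 in the humerus and -0.12 between the status differences, where all 23 arrays gave -0.024. The myeloid covariate gave that probe set -0.079, the first COL2A1 probe set -0.14 for femur status, -0.31 between joints over both states and -0.11 in affected cartilage, CILP -0.45 for femur status, and COL11A1 -0.036 and the second ACAN probe set -0.0084 between joints in affected cartilage. The bone covariate gave the second COL2A1 probe set 0.032 for status over both joints, 0.034 in the femur and 0.031 in the humerus, and -0.13, -0.13 and -0.13 between joints over both, affected and non-affected states. It gave the second CILP probe set 0.078 for status and -0.0023 between joints in non-affected cartilage, the first CILP probe set -0.32 there, and between joints over both states COL2A1 -0.37 and COMP -0.026. Weighting joints equally gave the second CILP probe set 0.021 for status.

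Leaving out a sample changed the sign of some small differences. For status over both joints the ranges were -0.12 to 0.013 for the second COL2A1, -0.069 to 0.048 for the second CILP and -0.037 to 0.19 for the SOX9 probe set. In the femur they were -0.24 to 0.15 for the second COL2A1, -0.027 to 0.19 and -0.019 to 0.22 for ACAN, and -0.092 to 0.30 and -0.0076 to 0.26 for CILP. In the humerus HAPLN1 gave -0.26 to 0.072 and -0.24 to 0.15. Between the status differences the second probe sets gave -0.18 to 0.21 for COL2A1, -0.16 to 0.081 for ACAN and -0.19 to 0.022 for COMP. Between joints COL11A1 gave -0.22 to 0.30 in affected and COMP -0.088 to 0.061 in non-affected cartilage.

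Over all tested probe sets, femur status calls numbered 192, and 4 with only the groups compared, 59 with array weights, 94 with the myeloid covariate, 600 with 23 arrays and 893 with the bone covariate. Calls between the status differences numbered 45, and 6 with the myeloid covariate, 21 with array weights, 220 with 23 arrays and 260 with the bone covariate. Status calls over both joints numbered 0, and 22 with joints weighted equally. Joint calls over both states numbered 8707 and 4777 with the bone covariate, and in affected cartilage 6466, 422 with the myeloid and 2792 with the bone covariate; over both states they split as 2963 higher and 5744 lower, and as 4909 higher and 3761 lower after centring.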
